A study of Mus musculus with 2 samples.

Results

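Follicular naive B cells are the resting, recirculating B cells that have not yet met antigen. Here they were 2369 of the 32976 cell barcodes that passed the quality limits, 1226 of 17108 in the vehicle library and 1143 of 15868 in the RP-6306 library. They were chosen by raw counts of unique molecular identifiers (UMIs, tags that mark single captured RNA molecules). Barcodes with fewer than 500 UMIs, fewer than 300 genes or more than 15% mitochondrial UMIs were left out. A member needed 3 or more UMIs summed over Cd79a, Ms4a1, Ebf1 and Pax5, and at least 1 UMI of Ighd. Fcrl5, Sox5 and Mzb1, genes of marginal zone, memory or secreting B cells, had to be at 0, as did Cd3d, Cd3e and Cd3g of T cells. At most 1 UMI was allowed for Trac plus Trbc2, for Krt8 plus Krt18, and for Lyz2. The values of these genes chose the cells and are given as description only.

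Mature naive B cells carry IgM and IgD on the surface, both spliced from 1 rearranged heavy chain gene, paired with a kappa or a lambda light chain. They move between blood and lymphoid follicles under CXCR5, CCR7 and S1P receptors, and live on BAFF and on weak signals through the antigen receptor. They hold class II MHC with its invariant chain, and so can show antigen to CD4 T cells. In tumours they are found in lymphoid aggregates and in blood that the tissue holds.

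RM-1 is a mouse prostate cancer line, and it had been injected under the skin of C57BL/6 mice, whose genotype is given as WT. Tumour tissue was collected 10 days after treatment, either with vehicle or with RP-6306, which inhibits PKMYT1, a kinase that restrains CDK1 until cells enter mitosis. In both groups CD45+ leukocytes from the dissociated tissue were recombined with tumour cells at 3 to 1, so shares among all barcodes follow the mix. With 1 library per group and a pair of mice in all, no difference between libraries has a replicate check, no test was possible, and intervals cover counting error only. Dose, age and sex of the mice were not in the labels used here.

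The members had a median of 2219.5 UMIs and 1225 genes per cell in the vehicle library and of 1980 UMIs and 1152 genes in the RP-6306 library. Their summed depth was 2885714 and 2456893 UMIs. Median mitochondrial shares were 1.07% and 1.22%. The 2 files share 374 barcodes, but no barcode was a member in both. Scrublet, a doublet caller, called 0 barcodes in either library, so no doublet was removed. The top 6% of its scores held 23 vehicle and 12 RP-6306 members. The B gene sum had medians of 12 and 11, well above its limit of 3, where 34 and 28 cells lay, against 16 and 18 cells just outside at a sum of 2. The limit on Ighd cut a denser region: 744 and 706 members held exactly 1 Ighd UMI, and 1233 and 1220 cells failed on Ighd alone. The limit on Fcrl5, Sox5 and Mzb1 kept out 380 and 397 cells with exactly 1 UMI of these genes.

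RNA of most other lineages was present at low levels and differed between the libraries. The 13 tumour markers outside the rule summed to 258 CPM (UMIs scaled to the same total in each library) in vehicle members. Their sum was 151 CPM in RP-6306 members, and at least 1 UMI was seen in 40.9% and 19.9% of members. In T cells these markers summed to 159 and 81.1 CPM. Krt7, Krt14 and Timp3 were at 0 in members of both libraries. The 11 T cell markers outside the rule gave 108 and 116 CPM against 3037 and 3706 CPM in T cells. At least 5 UMIs of them were held by 19 and 17 members. The 9 neutrophil markers gave 86.3 and 4.88 CPM, with Ly6g and Retnlg at 0. In the vehicle library 39.0% of the neutrophil UMIs lay in 1 cell. The 9 natural killer cell markers gave 76.6 and 43.1 CPM, of which 1 cell held 43.4% in the RP-6306 library. The 12 macrophage and monocyte markers outside the rule gave 102 and 125 CPM. The 9 dendritic cell markers gave 20.4 and 24.4 CPM, with Clec9a, Siglech and Xcr1 at 0. The 6 plasma cell markers gave 41.6 and 34.2 CPM, with Jchain and Tnfrsf17 at 0. The 7 endothelial markers had the highest sum of these sets, 329 and 306 CPM, although Emcn, Vwf, Esam and Cldn5 were at 0. In T cells they gave 188 and 217 CPM and in tumour cells 24.2 and 20.4 CPM. The ribosomal protein genes, whose share moves with RNA content and state, gave 115508 and 127544 CPM in members and 153783 and 169710 CPM in T cells. T cells here are barcodes with at least 2 UMIs of the Cd3 genes none of the B gene sum and at most 1 UMI each of the keratin pair and Lyz2, and tumour cells are barcodes with at least 5 UMIs of Krt8 plus Krt18 and none of Ptprc, the B genes or the Cd3 genes.

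Genes that the rule did not use stood at B cell levels. The members were cut from all barcodes by B cell genes, so these levels describe them and test nothing. Cd79b, the partner of Cd79a in the antigen receptor, stood at 356 CPM in vehicle and 370 CPM in RP-6306 members, against 4.0 and 3.12 CPM in T cells. Fcer2a (CD23), a low-affinity IgE receptor of follicular B cells, was at 237 and 240 CPM, and T cells held 1.68 and 0.584 CPM. Cr2 (CD21), the complement receptor, was at 278 and 252 CPM. Fcmr, the Fc receptor for IgM, was at 305 and 319 CPM. Among the genes of the rule, Cd79a (chr7:24897381-24902197, plus strand) was at 1349 and 1545 CPM and Ebf1, a B lineage transcription factor, was at 2866 and 2808 CPM. Ms4a1 (CD20) was at 584 and 672 CPM, Pax5 at 649 and 508 CPM, and Ighd at 679 and 722 CPM. Of the 15 follicular naive B markers, 10 were outside the rule, and none of these was at 0 in either library. Any UMI in the summed members would meet that, so it says little about the cell name. By the ratio to all other passing barcodes, the 20 leading genes were Ighd, Cr2, Mef2c, Fcer2a, Fcmr, Cd79a, Bank1, Ebf1, Pax5, Chst3, the predicted gene Gm50386 and 9 immunoglobulin V genes.

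Shares of cells with a UMI were compared after each cell was thinned to 1000 UMIs, which left out 21 vehicle and 30 RP-6306 members. Cd74, the invariant chain of class II MHC, had a UMI in 99.8% of members in both libraries (99.8% and 99.9% unthinned). T cells, whose median depth was 3218 and 2758 UMIs unthinned, gave 5.95% and 3.97%. Cd79b was seen in 30.2% (95% interval 27.6 to 32.9) and 30.4% (27.7 to 33.2) of members, 52.9% and 52.6% unthinned, and in 0.251% and 0.376% of T cells. Fcer2a was seen in 20.6% and 22.4% of members against 0.287% and 0.0579% of T cells, and unthinned in 38.1% and 34.5% of members. These shares in members are far above the T cell background. Ighm differed from the other B genes in its background: it was seen in 51.5% and 44.6% of members and in 10.7% and 13.3% of T cells, where its level was 116 and 138 CPM.

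**Figure D1:**
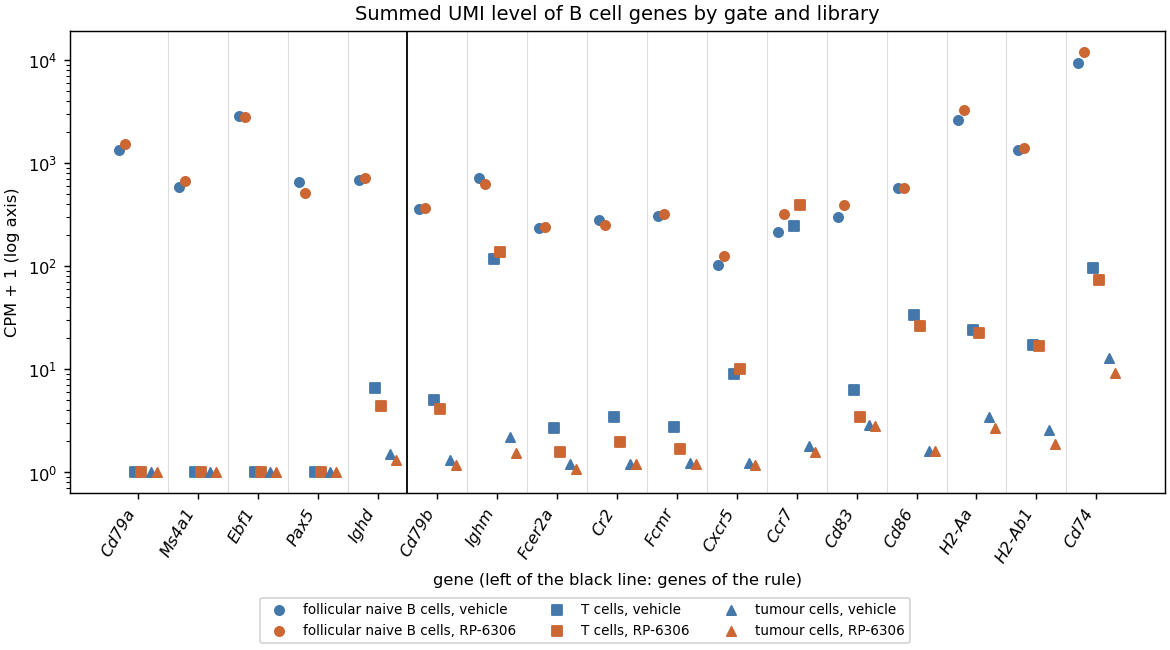
Summed UMI level (CPM + 1, log axis) of 17 B cell genes in follicular naive B cells (circles), T cells (squares) and tumour cells (triangles), with vehicle in blue and RP-6306 in orange. Each point is 1 library. The genes left of the black line belong to the rule, and T and tumour cells were gated to hold none of the first 4. Cd79b, Fcer2a, Cr2 and Fcmr lie far above both other cell sets, while Ccr7 lies at T cell levels.

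Follicular naive B cells made up the same part of both libraries within counting error. They were 7.17% (95% Clopper-Pearson interval 6.78 to 7.56) of passing barcodes in the vehicle library and 7.20% (6.81 to 7.62) in the RP-6306 library. Outside the tumour cell gate they were 8.07% and 8.32%. Of all B cells (the rule without Ighd and without Fcrl5, Sox5 and Mzb1) they were 35.2% (33.6 to 36.8, 1226 of 3482) and 33.3% (31.7 to 34.9, 1143 of 3431). All B cells were 20.4% and 21.6% of passing barcodes. With every gene of T, tumour and myeloid cells in the rule held at 0, the log2 ratio of the member share, RP-6306 over vehicle, was 0.15, and with at least 1000 UMIs per cell it was -0.14, against 0.01 as first given. The sort, the 3 to 1 mix and the UMI limit can each set this share.

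The heavy chain constant genes of members are given as description, since the rule required an Ighd UMI. Ighm (chr12:113418558-113422730, minus strand) was at 712 CPM in vehicle and 633 CPM in RP-6306 members, a log2 ratio of -0.17 (95% interval -0.27 to -0.08). At least 1 Ighm UMI was held by 77.1% (74.6 to 79.4) of vehicle and 69.0% (66.3 to 71.7) of RP-6306 members, unthinned. In unthinned T cells the shares were 30.7% and 31.0%. Ighm exceeded Ighd in 35.2% (32.6 to 37.98) and 27.6% (25.1 to 30.3) of members, and Ighd exceeded Ighm in 38.3% (35.5 to 41.0) and 46.2% (43.3 to 49.1). The balance thus lay further to Ighd in the RP-6306 library, where median depth was lower and where Ighd itself was part of the rule. Constant genes of switched isotypes (IgG, IgA and IgE) were seen in 8 vehicle members (0.653%, 0.282 to 1.28) and 4 RP-6306 members (0.350%, 0.0954 to 0.894). The limit on Ighd favoured a low share of switched cells in advance, so these shares do not test the naive state.

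Light chain constant and variable genes gave different pictures of the same cells. By constant genes, 52.9% (50.1 to 55.8) of vehicle and 50.04% (47.1 to 53.0) of RP-6306 members held more Iglc1, Iglc2 and Iglc3 (lambda) than Igkc (kappa) UMIs. More Igkc than lambda constant UMIs were held by 19.2% and 21.8%, and neither by 17.1% and 18.5%. By variable (V) genes the members were mostly kappa: at least 1 kappa V UMI was seen in 91.6% and 91.8% of members and at least 1 lambda V UMI in 11.1% and 12.9%. Mean levels were 5.44 and 6.16 kappa V UMIs per cell against 0.327 and 0.423 lambda V UMIs.

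Igkc differed with the V genes of the cell, and the sum of the lambda constant genes differed less. Members with at least 3 kappa V UMIs and no lambda V UMI (800 and 801 cells) held a mean of 1.88 and 1.51 lambda constant UMIs per cell and 0.940 and 0.824 Igkc UMIs. In 54.5% (51.0 to 58.0) and 49.3% (45.8 to 52.8) of them the lambda constant genes exceeded Igkc. Members with at least 3 lambda V UMIs and at most 1 kappa V UMI (26 and 38 cells) held 1.85 and 1.76 lambda constant UMIs, about the same level, but only 0.154 and 0.132 Igkc UMIs. Most of that sum was Iglc2 and Iglc3. Iglc1, the least abundant, was lower in the cells with kappa V genes, at 0.075 and 0.0587 UMIs per cell against 0.308 and 0.263 in those with lambda V genes, from 60 and 47 UMIs against 8 and 10. T cells held 4.74 and 2.04 CPM of Igkc and 2.95 and 1.07 CPM of Iglc2, against 350 and 343 CPM of Igkc and 383 and 350 CPM of Iglc2 in members, so the lambda constant UMIs were not at the T cell background. A share of lambda cells is therefore not given from constant genes. The sources used here do not say how reads of these similar genes were assigned.

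V gene use was spread over many genes. Among members with at least 2 heavy chain V UMIs (789 and 837), 85.7% in both libraries had at least 80% of them from 1 gene. The 676 and 717 cells of that kind used 85 and 88 different heavy chain V genes. Ighv1-26 was the most frequent among them in the vehicle library, at 6.21%, and Ighv3-6 in the RP-6306 library, at 4.18%. For kappa, 84.8% and 81.6% of cells with at least 2 V UMIs had 1 such gene, over 79 and 78 genes. Igkv10-96 was the most frequent of these in both libraries, at 4.44% (38 of 855 cells) and 8.54% (68 of 796). V genes are near-identical within families, so the counts of single V genes are uncertain.

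**Figure D2:**
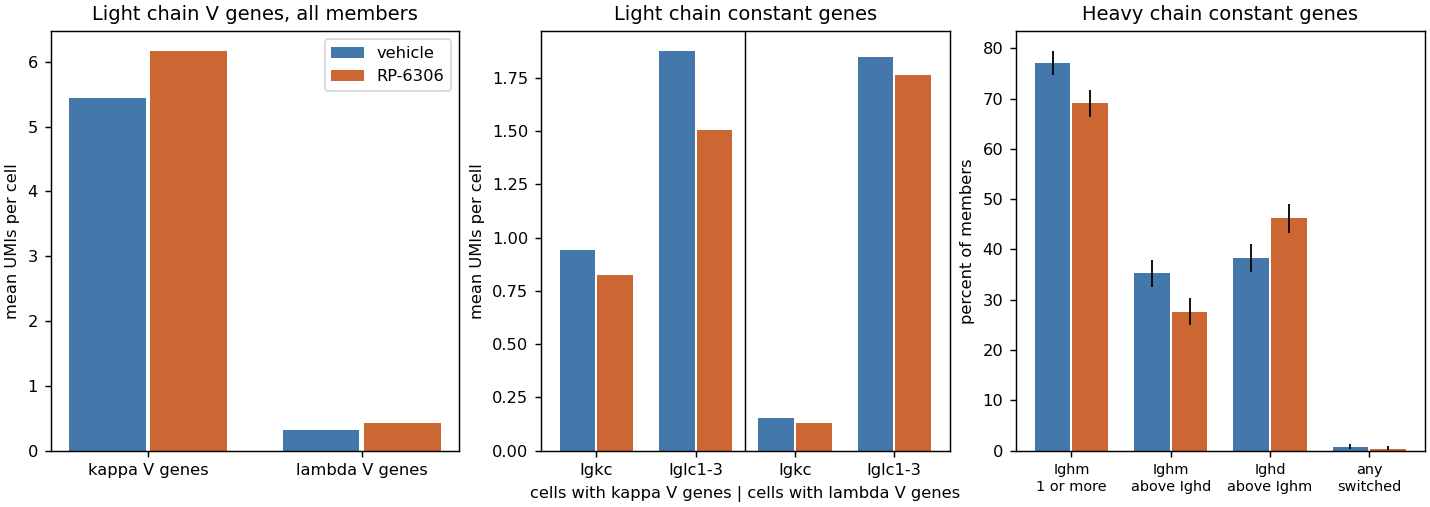
Immunoglobulin genes in follicular naive B cells of the vehicle (blue) and RP-6306 (orange) library. Left, mean UMIs per cell of kappa and lambda V genes over all members. Middle, mean UMIs per cell of Igkc and of Iglc1 to Iglc3 in cells with kappa V genes and in cells with lambda V genes. Right, percent of members with each heavy chain pattern, with exact 95% intervals. Lambda constant UMIs are as high in cells with kappa V genes (1.88 and 1.51) as in cells with lambda V genes (1.85 and 1.76).

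Between the libraries, genes that differed within follicular naive B cells included Slc15a2, Btg2, Zfp981 and Ptpn22, which were higher, and Cdk8 and Rgl1, which were lower in the RP-6306 library. Of 10149 genes with at least 20 UMIs over both libraries, 457 (4.5%) were past 1.5-fold higher and 719 (7.08%) past 1.5-fold lower in RP-6306 members, 11.6% either way. The median log2 ratio of all measured genes was 0.02, with 52.5% of them higher and 47.5% lower. The 95% interval lay above 0 for 10.5% of genes and below 0 for 7.66%. The genes named by size had to be at least as high in members as in all other barcodes, unless said otherwise. Each ratio is the log2 of CPM + 1, RP-6306 over vehicle.

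Slc15a2, a peptide transporter (chr16:36750177-36784962, minus strand), was at 110 CPM in vehicle and 249 CPM in RP-6306 members, a log2 ratio of 1.17 (0.98 to 1.37). In T cells Slc15a2 was at 102 and 174 CPM, with a log2 ratio of 0.77. Btg2 (chr1:134075170-134079120, minus strand), an antiproliferative factor that speeds removal of mRNA tails, was at 379 and 756 CPM, with a log2 ratio of 0.99 (0.89 to 1.10) in members and 0.95 in T cells. These 2 genes were thus higher in both lineages of the RP-6306 library. Zfp981, a zinc finger gene (chr4:146502027-146539395, plus strand), was at 305 and 547 CPM, a log2 ratio of 0.84 (0.72 to 0.97). Its level in T cells was 22.2 and 22.4 CPM. B3gnt7, an enzyme that extends sugar chains, was at 28.8 and 54.9 CPM, a log2 ratio of 0.91 (0.53 to 1.35), and stood near 0.1 CPM in T cells of both libraries. Both were far lower in T cells than in members, and in the B cells that hold Fcrl5, Sox5 or Mzb1 their log2 ratios were 0.85 and 0.94.

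Ptpn22, a phosphatase that restrains antigen receptor signalling, was at 366 and 615 CPM, a log2 ratio of 0.75 (0.63 to 0.86) against 0.38 in T cells. Zfp36l2, a protein that binds and removes AU-rich mRNAs, was at 329 and 560 CPM, 0.76 (0.65 to 0.89). Pik3ip1, an inhibitor of PI3 kinase, was at 43.7 and 83.0 CPM, 0.91 (0.60 to 1.26), with 0.99 in T cells. Sgk3, a kinase downstream of PI3 kinase, was at 107 and 182 CPM, 0.76 (0.55 to 0.98). The remaining genes of this set were Ppp1r21 (0.92), Acp5 (0.88), Irf7 (0.77), the master regulator of type I interferon, and Zfp53 (0.77). All 12 kept their direction under each of the 11 alternative settings. Without the condition on other barcodes, Fkbp5, a chaperone of the glucocorticoid receptor, joined with 40.5 and 83.8 CPM (1.03, 0.71 to 1.39), as did Znrf1 (1.01) and Ddit4 (0.93), an inhibitor of mTORC1.

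Among the lower genes, Cdk8, a kinase of the Mediator complex (chr5:146231230-146302874, plus strand), was at 1253 CPM in vehicle and 747 CPM in RP-6306 members, a log2 ratio of -0.75 (-0.83 to -0.67). It was as much lower in T cells (-0.73), at 1665 and 1006 CPM, and differed little in tumour cells (-0.02). Gm42418, an annotated gene that carries ribosomal RNA sequence, was lower in members too: it took 10.4% of vehicle and 6.51% of RP-6306 member UMIs, a log2 ratio of -0.67. Further abundant transcripts were named after their values were seen. Zc3h7a (-0.46) and Lars2 (-0.46) were lower as well, AY036118 (-0.29), Gm26917 (-0.21) and Cmss1 (-0.21) less so, and Gphn was at 0.07. In tumour cells, where Cdk8 differed little, Gm42418 had -0.35, Zc3h7a -0.60 and Lars2 -0.51. The part of these transcripts in the Cdk8 result was not tested. Chst3, a sulfotransferase (chr10:60181532-60219260, minus strand), was at 146 and 101 CPM, a log2 ratio of -0.53 (-0.77 to -0.31), with under 1 CPM in T cells. Rgl1, an exchange factor for Ral, was at 55.1 and 33.0 CPM, -0.72 (-1.15 to -0.35). Rapgef4, an exchange factor for Rap1, was at 171 and 116 CPM, -0.56 (-0.78 to -0.35), and level in T cells (0.00). The others were Tagap (-0.60), Gpr107 (-0.58), Ing3 (-0.56), Ctr9 (-0.56), Foxo3 (-0.54), Sil1 (-0.51) and Rapgef1 (-0.51). Foxo3, Ing3 and Sil1 had ratios of the opposite sign in the Fcrl5, Sox5 or Mzb1 positive B cells (0.34, 0.16 and 0.23).

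Without the condition on other barcodes, the 5 lowest genes were Sparc (-1.24), Spp1 (-1.22), Tm4sf1 (-1.18), AW112010 (-1.12) and Anxa1 (-1.07). Sparc, a matrix protein, was at 109 and 45.6 CPM in members and at 859 and 582 CPM in tumour cells, and its ratio in the Fcrl5, Sox5 or Mzb1 positive B cells had the other sign (0.40). Spp1 was at 68.6 and 28.9 CPM in members and at 699 and 554 CPM in tumour cells. Apart from AW112010, these genes were several times higher in tumour cells than in members, and the log2 ratios in T cells were -1.27 for Sparc, -1.55 for Spp1, -1.01 for Tm4sf1 and -0.92 for Anxa1. The tumour marker sum in members moved the same way, from 258 to 151 CPM, and its part in these ratios was not tested.

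**Figure D3:**
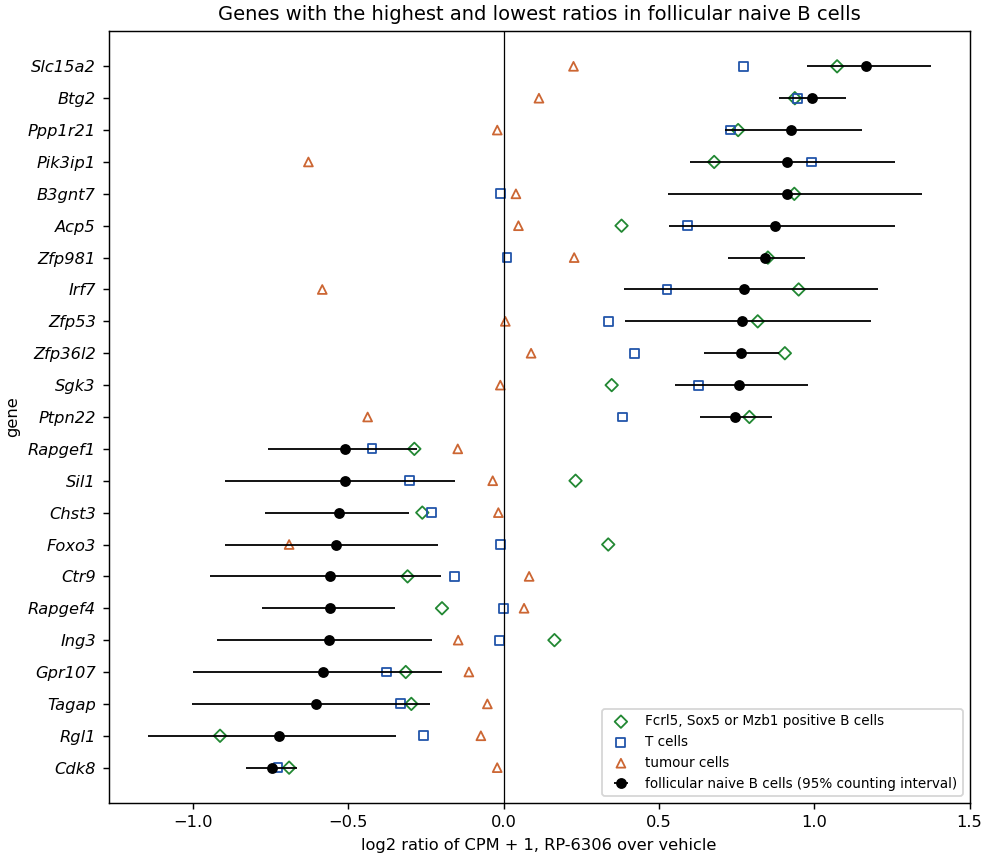
Log2 ratio of CPM + 1, RP-6306 over vehicle, for the 12 highest and 11 of the 12 lowest genes of the rule for named genes. Black points with 95% counting intervals are follicular naive B cells, and open symbols are Fcrl5, Sox5 or Mzb1 positive B cells (diamonds), T cells (squares) and tumour cells (triangles), 1 value per library pair. Zfp981 sits near 0 in T cells (22.2 and 22.4 CPM), whereas Btg2, Pik3ip1 and Cdk8 in T cells sit beside the value in members. B3gnt7 stood near 0.1 CPM in T cells, so with 1 CPM added its ratio there is near 0 whatever its change.

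Genes of quiescence, which hold resting lymphocytes out of the cycle, leaned higher in the RP-6306 library. Of 17 measured, 14 were higher and 3 lower, with a median log2 ratio of 0.35. Over all measured genes 52.5% were higher and 4.5% past 1.5-fold higher. In this list 3 were past 1.5-fold higher: Btg2, which is also counted here as an immediate early gene, Pik3ip1 and Zfp36l2. Zfp36, another mRNA decay factor, was at 138 and 197 CPM (0.51, 0.32 to 0.71). Txnip, an inhibitor of glucose uptake, was at 857 and 1095 CPM (0.35). The list stood as high in T cells, with a median of 0.39. In thinned cells, Zfp36l2 was seen in 26.1% (23.7 to 28.7) of vehicle and 40.7% (37.8 to 43.7) of RP-6306 members (48.4% and 61.9% unthinned), and in 39.1% and 50.1% of T cells. The list of glucocorticoid response genes, which shares Txnip, had 8 of 11 higher and the same median, 0.35, and held both past 1.5-fold, Fkbp5 and Ddit4. Sgk1, a classical target of that receptor, went the other way, at 40.5 and 28.5 CPM (-0.49, -0.96 to -0.07). Tumour cells held 194 and 137 CPM of Sgk1 (-0.50), and its log2 ratio in T cells was 0.21.

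Signalling from the antigen receptor split by sign. Of 23 activating genes, 12 were higher and 11 lower, with a median of 0.01 and none past 1.5-fold. That is near the share over all measured genes, where 52.5% were higher and 4.5% past 1.5-fold higher. Nfatc1, a calcium-responsive factor, had -0.46 (97.4 and 70.4 CPM), and the tetraspanin Cd81 was the highest with 0.56 (54.8 and 81.4 CPM). The adaptor Fyb had -0.51, at 42.6 and 29.7 CPM. T cells held 737 and 854 CPM of Fyb (0.21), and the part of T cell RNA in its ratio was not tested. Of 13 inhibitory genes, 11 were higher and 2 lower, with a median of 0.24. Ptpn22 was the 1 gene of them past 1.5-fold. Fcgr2b, the inhibitory Fc receptor of B cells, was at 75.5 and 105 CPM (0.47, 0.21 to 0.74), and Siglecg, a sialic acid receptor that damps calcium signals, was at 119 and 155 CPM (0.39, 0.18 to 0.61). The inhibitory genes had a median of 0.18 in T cells and of 0.15 in the Fcrl5, Sox5 or Mzb1 positive B cells.

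Class II MHC genes, with which B cells present antigen to CD4 T cells, were higher in 13 of 14 cases in RP-6306 members. Their median was 0.21 and none was past 1.5-fold, and over all measured genes 52.5% were higher. Cd74 was at 9363 and 11903 CPM, a log2 ratio of 0.35 (0.32 to 0.37). H2-Aa, the alpha chain of I-A, was at 2635 and 3282 CPM (0.32, 0.27 to 0.36), whereas its partner H2-Ab1 was at 1337 and 1418 CPM (0.08, 0.02 to 0.15). H2-DMb2, a subunit of the peptide exchange factor DM, was at 369 and 507 CPM (0.45, 0.34 to 0.58). H2-Oa, a subunit of DO, which holds DM back, was at 137 and 175 CPM (0.35, 0.15 to 0.55). Ifi30, a thiol reductase of the lysosome, was at 197 and 260 CPM (0.40, 0.24 to 0.57). Ciita, the coactivator that drives these genes, was the 1 lower member, at 134 and 120 CPM (-0.15, -0.38 to 0.07). The list median was 0.17 in the Fcrl5, Sox5 or Mzb1 positive B cells, 0.23 in B cells without an Ighd UMI and -0.09 in T cells, where H2-Aa stood at 23.4 and 21.6 CPM. It lay between 0.15 and 0.24 under the alternative settings.

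Class II promoters share a Y box, the reverse of a CCAAT box, which the factor NF-Y binds. The 250 bases before the gene start of the 3 members with a promoter entry and a ratio above 0.3 that hold GATTGG are shown, since these genes lay together on the higher side. The letters GATTGG, searched on both strands (CCAATC on the other), are in capitals. The sequences are RefSeq's for GRCm38.p6, read along the gene's strand. The windows are chr17:34287824-34288073 (minus strand) for H2-Aa, chr17:34144999-34145248 (plus strand) for H2-DMb2 and chr17:34092129-34092378 (plus strand) for H2-Oa. The H2-DMb2 window lies inside that gene's GENCODE bounds, which begin earlier, at 34143307, and the H2-Oa window overlaps the first bases of that gene's bounds.
H2-Aa: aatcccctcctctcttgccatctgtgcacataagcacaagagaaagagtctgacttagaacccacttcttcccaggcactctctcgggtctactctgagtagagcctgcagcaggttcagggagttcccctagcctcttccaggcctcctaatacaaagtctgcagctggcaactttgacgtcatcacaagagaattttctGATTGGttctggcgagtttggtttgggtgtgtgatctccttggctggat
H2-DMb2: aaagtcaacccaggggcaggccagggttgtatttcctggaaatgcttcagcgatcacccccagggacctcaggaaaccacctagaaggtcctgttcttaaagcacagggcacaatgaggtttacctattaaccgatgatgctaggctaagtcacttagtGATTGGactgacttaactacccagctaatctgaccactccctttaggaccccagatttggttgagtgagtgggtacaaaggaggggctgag
H2-Oa: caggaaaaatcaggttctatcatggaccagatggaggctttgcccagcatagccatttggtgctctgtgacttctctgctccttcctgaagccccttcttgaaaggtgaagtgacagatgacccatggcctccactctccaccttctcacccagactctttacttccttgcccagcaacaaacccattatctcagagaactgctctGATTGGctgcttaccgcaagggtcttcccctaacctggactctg
The motif begins 49, 91 and 44 bases before the RefSeq start. It was found in at least 1 upstream window of 8 of the 11 class II list genes that have an entry (Ctss, Ifi30 and Lgmn were without it), and in 14.6% of all 32851 windows in the table (16.6% of gene symbols). A match describes the letters and does not show that NF-Y binds there, and it was found also for H2-DMb1 (0.04) and H2-DMa (0.06), which stood level between the libraries.

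Class I MHC genes did not lean as far, with 14 of 23 higher, beside 52.5% of all measured genes. Their median of 0.06 changed sign in 1 of 11 settings. H2-D1 was at 743 and 937 CPM (0.33, 0.25 to 0.42), while Nlrc5, the coactivator of class I genes, was at 116 and 88.3 CPM (-0.39, -0.64 to -0.14). Interferon-stimulated genes were even, with 21 higher and 21 lower of 42 and a median of 0.00, which changed sign in 5 of 11 settings. Irf7 was at 29.8 and 51.7 CPM (0.77, 0.39 to 1.21) and Ifi213, a DNA-sensing family member, had 0.48 (0.34 to 0.62). Ifit2, a translation inhibitor, was at 40.2 and 29.3 CPM (-0.44, -0.90 to -0.02). Of 18 interferon-gamma induced genes 8 were higher. The GTPase Gbp6 was at 31.5 and 16.3 CPM (-0.91, -1.53 to -0.40). Cd274 (PD-L1), the ligand of PD-1, was at 111 and 89.1 CPM (-0.31, -0.57 to -0.06), with -0.27 in T cells.

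Of the 19 genes of BAFF, CD40 and survival signalling, 16 were higher in RP-6306 members, with a median of 0.14. Among all measured genes 52.5% were higher and 4.5% past 1.5-fold higher. Relb, the NF-kB subunit downstream of BAFF and CD40, was at 85.9 and 140 CPM (0.70, 0.47 to 0.95) and level in T cells (-0.14), and was the 1 gene of them past 1.5-fold. Birc3, a brake on that pathway and on cell death, was at 384 and 559 CPM (0.54, 0.42 to 0.66), with 0.48 in T cells. Nfkbia, the inhibitor of NF-kB, was at 158 and 222 CPM (0.48, 0.30 to 0.67). Tnfrsf13c, the BAFF receptor itself, was at 122 and 106 CPM (-0.20, -0.44 to 0.03).

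The transcription factors that hold B cell identity were even, with 11 of 21 higher and a median of 0.02 that changed sign in 3 of 11 settings. That is near the share over all measured genes, where 52.5% were higher and 4.5% past 1.5-fold higher. Pou2af1, the B cell coactivator of octamer factors (chr9:51213708-51240080, plus strand), was at 132 and 212 CPM, 0.68 (0.49 to 0.88), and was the 1 gene past 1.5-fold. Irf4, a factor of activated and secreting B cells, was at 176 and 131 CPM (-0.42, -0.63 to -0.22), and Bach2, which keeps B cells from becoming plasma cells, was at 1960 and 1577 CPM (-0.31, -0.37 to -0.25). Pax5, a gene of the rule, was at 649 and 508 CPM (-0.35, -0.46 to -0.25). Klf2, the factor behind recirculation, was at 336 and 408 CPM (0.28, 0.15 to 0.41), with 0.80 in T cells. Foxo1, Foxp1 and Ikzf1 had ratios between -0.06 and -0.02.

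Among genes of follicular homing and recirculation, 8 of 18 were higher and 10 lower (median -0.03, of the other sign in 3 of 11 settings). Of all measured genes 52.5% were higher and 47.5% lower. Cxcr4 was at 79.0 and 133 CPM (0.75, 0.50 to 1.00), and Ccr7, the receptor for lymph node chemokines, was at 213 and 321 CPM (0.59, 0.44 to 0.75). Cxcr5, the follicle receptor, was at 102 and 125 CPM (0.28, 0.05 to 0.52). In T cells the ratios were 0.90 for Cxcr4 and 0.66 for Ccr7. Rgs1, which damps chemokine receptors, was at 36.7 and 21.98 CPM (-0.72, -1.24 to -0.26), and the integrin Itgal was at 33.6 and 21.98 CPM (-0.59, -1.12 to -0.12). S1pr1, the exit receptor, was at 93.2 and 103 CPM, and its interval (-0.10 to 0.40) held 0. Thinned, Ccr7 was seen in 17.9% (15.8 to 20.2) and 27.6% (24.97 to 30.3) of members (35.0% and 45.8% unthinned), beside 21.0% and 31.0% of T cells.

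Activation genes differed in both directions, with 14 of 27 higher, a median of 0.03, none past 1.5-fold higher and 4 past 1.5-fold lower. Among all measured genes 52.5% were higher, 4.5% past 1.5-fold higher and 7.08% past 1.5-fold lower. Cd83, which holds class II at the surface, was at 297 and 394 CPM (0.41, 0.27 to 0.54), and T cells held 5.26 and 2.43 CPM. Cd69, the early activation marker that blocks exit, was at 321 and 398 CPM (0.31, 0.18 to 0.44), and Cd86, the costimulatory ligand, was at 579 and 572 CPM (-0.02, -0.12 to 0.09). Nfkbie, an NF-kB inhibitor, was at 31.2 and 47.2 CPM (0.58, 0.19 to 1.01). Cd44 was at 167 and 87.1 CPM (-0.93, -1.18 to -0.71), with -0.64 in T cells, while tumour cells held 828 and 610 CPM of it. Ccl4 had 103 UMIs in vehicle and 5 in RP-6306 members, but 47.6% of the vehicle UMIs were in 1 cell. Of 24 measured immediate early and dissociation stress genes, 13 were higher and 11 lower, and Btg2 (0.99) was the highest. They split within the AP-1 family: Junb was at 457 and 761 CPM (0.73, 0.63 to 0.84), and Jun was at 172 and 94.4 CPM (-0.85, -1.09 to -0.63). Atf3 was at 52.7 and 28.1 CPM (-0.88, -1.34 to -0.49). In T cells the ratios were 0.61 for Junb, -0.16 for Jun and -1.15 for Atf3. In tumour cells the levels of Jun and Atf3 were 565 and 424 CPM and 293 and 179 CPM.

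Genes of age-associated and memory B cells and of mitosis were mostly lower in the RP-6306 library. The age-associated and memory list summed to 1880.3 CPM in vehicle and 1352 CPM in RP-6306 members. Of 11 measured age-associated and memory genes, 10 were lower (median -0.57) and 5 were past 1.5-fold lower. Over all measured genes 47.5% were lower and 7.08% past 1.5-fold lower. Ahnak was at 183 and 98.9 CPM (-0.88, -1.11 to -0.67) and Lgals1 at 244 and 137 CPM (-0.83, -1.03 to -0.65). S100a6 was at 504 and 321 CPM (-0.65, -0.78 to -0.52). Tumour cells held 969 and 788 CPM of Ahnak, 2588 and 2744 CPM of Lgals1 and 5260.3 and 6432 CPM of S100a6. The log2 ratios in T cells were -1.01 for Ahnak, -0.78 for Lgals1 and -0.81 for S100a6. The defining genes of age-associated B cells, Itgax and Tbx21, had 2 and 6 UMIs and 5 and 1 UMIs. Of 25 measured genes of G2 and mitosis 22 were lower (median -0.50) and 10 were past 1.5-fold lower, at low counts and beside the same shares over all genes. Mki67, the proliferation marker, had 101 and 40 UMIs (-1.06, -1.67 to -0.56), and Anln had 55 and 16. The same list had a median of -0.43 in T cells and 0.51 in tumour cells, where Mki67 stood at 202 and 262 CPM. The tumour marker sum in members was 258 and 151 CPM, and its part in either list was not tested.

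Plasma cell genes were lower in 9 of 10 measured (median -0.35), while of all measured genes 47.5% were lower and 52.5% higher. Those with 50 UMIs were led by Cd28 (-0.66, with 287 and 270.3 CPM in T cells) and by Slamf7 (-0.49). Of 7 measured germinal centre genes 4 were lower, and Bcl6, the master regulator, was at 45.4 and 57.4 CPM with an interval that held 0 (-0.02 to 0.69). Neil1, a repair enzyme, was at 20.4 and 35.8 CPM (0.78, 0.32 to 1.31). Transitional and precursor genes had 6 of 8 higher and a median of 0.41. Among them Vpreb3 was at 102 and 136 CPM (0.41, 0.19 to 0.65) and Il7r at 21.5 and 41.9 CPM (0.93, 0.50 to 1.44). Il7r stood at 709 and 1218 CPM in T cells, and Rag1, Rag2, Vpreb1 and Igll1 were at 0 in members of both libraries. Of 17 measured marginal zone and B-1 genes 10 were lower. Cd9, a tetraspanin of those cells, was at 45.0 and 22.8 CPM (-0.95, -1.46 to -0.52), and tumour cells held 372 and 366 CPM.

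Pkmyt1, the gene of the compound's target, was near the limit of detection in these cells. It had 22 UMIs in vehicle and 14 in RP-6306 members, and Wee1, the related kinase, had 22 and 10. The intervals of both log2 ratios held 0 (-1.50 to 0.61 and -2.15 to 0.23). RP-6306 acts on the protein, so the Pkmyt1 transcript is no check of the labels. Of the 15 measured genes of the PKMYT1 pathway 10 were lower and 5 higher (median -0.10), with 47.5% of all measured genes lower. Cdk2, a partner of cyclins E and A, was at 12.1 and 20.8 CPM (0.73, 0.13 to 1.44). Genes of S phase were even, 13 and 13 of 26, and nuclear oxidative phosphorylation genes had 23 of 41 higher, a median of 0.02 and none past 1.5-fold. Of the cytokine and costimulation genes 6 of 14 were higher. Il12a, a chain of IL-12 and IL-35, was at 13.2 and 21.98 CPM (0.70, 0.11 to 1.38), whereas Il10 had 2 and 1 UMIs and Il6 had none.

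**Figure D4:**
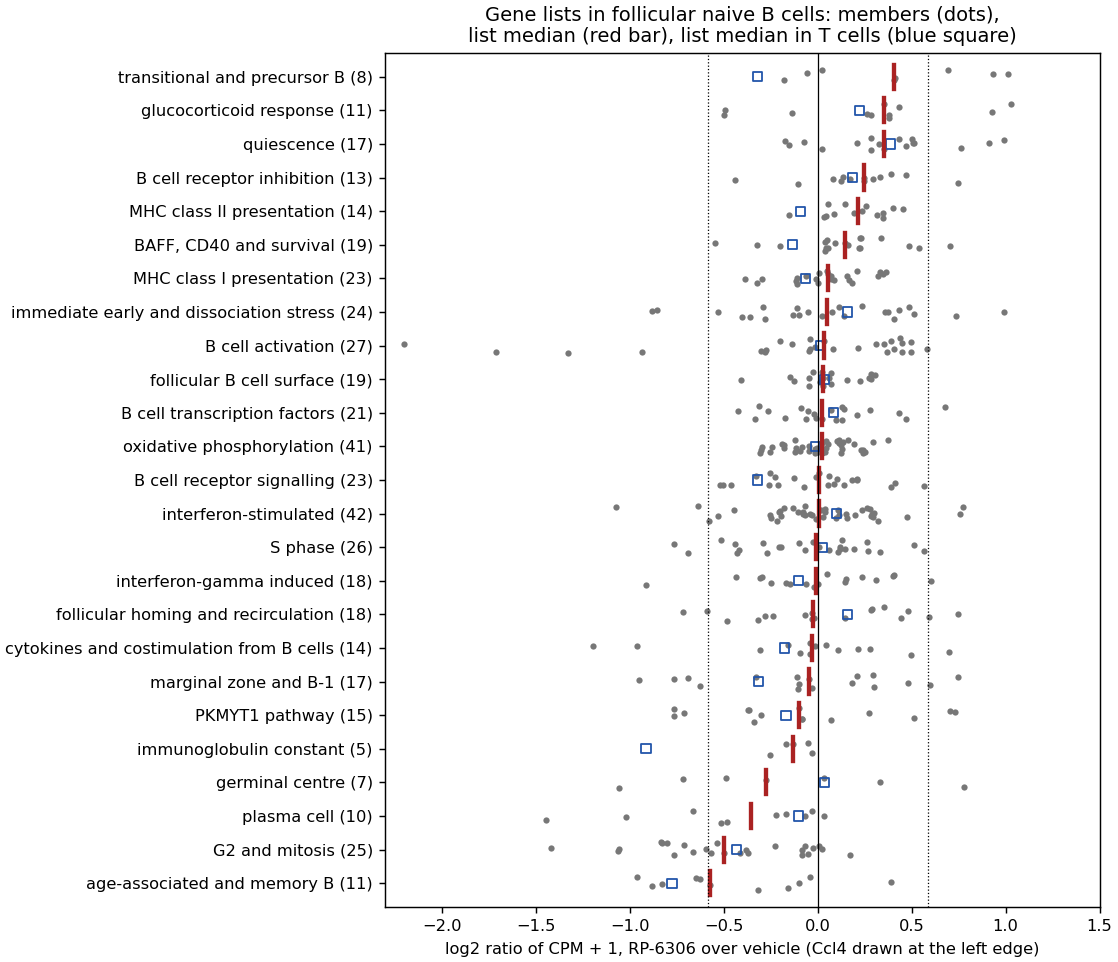
Log2 ratio of CPM + 1, RP-6306 over vehicle, for each measured gene (dots) of 25 lists in follicular naive B cells, with the list median (red bar) and the median of the same list in T cells (blue square). Dotted lines mark 1.5-fold, Ccl4 (-3.60) is drawn at the left edge, and the number of measured genes stands in brackets. Quiescence (0.35) and class II MHC (0.21) lie to the right and age-associated and memory genes (-0.57) to the left. The T cell median lies beside that of members for quiescence and on the other side of 0 for class II MHC.

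Set against B cells that met every other condition but held Fcrl5, Sox5 or Mzb1 (545 vehicle and 571 RP-6306 cells), follicular naive B cells differed past 1.5-fold in both libraries in few genes. Cells of both kinds were thinned to 1000 UMIs, since their median depths differed (2640 and 2320 UMIs in the comparison cells), and values were taken within each library. In the vehicle library 7.59% of 7194 genes were past 1.5-fold higher and 5.37% past 1.5-fold lower in members, and in the RP-6306 library 8.01% and 5%. In both libraries, 88 genes (1.22%) were past 1.5-fold higher and 33 (0.459%) past 1.5-fold lower. Of the 20 genes with the largest ratios, 4 had both intervals on 1 side of 0 (Cxcl2, Rrs1, Atxn1 and Rilpl2). The others had intervals that held 0 in a library, such as Zbtb40 with 22 against 4 and 23 against 2 UMIs. The 1 of these on the higher side was Cxcl2, a neutrophil chemokine, with 66 against 11 UMIs in the vehicle library (log2 ratio 1.39) and 38 against 9 in the RP-6306 library (1.06). Of all Cxcl2 UMIs of vehicle members 19.9% lay in 1 cell. Atxn1, a transcriptional regulator, had 63 against 53 UMIs (-0.89) and 41 against 48 (-1.18). Plac8, named after its values were seen, was lower in members, at 261 against 434 CPM (-0.73) and 255 against 395 CPM (-0.63).

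The 95% interval lay above 0 in both libraries for 19 genes (0.264%) and below 0 for 38 (0.528%), the latter with the 3 genes that the rule holds at 0. Named after their values were seen, the higher ones held Btg2 (0.29 and 0.19), Btg1 (0.28 and 0.20), Junb (0.32 and 0.25) and H2-Aa (0.18 and 0.10). Lower were Iglc2 (-0.25 and -0.57), Iglc3 (-0.34 and -0.36) and Psap, a lysosomal protein (-0.62 and -0.49). All 5 measured constant genes of the immunoglobulin list were lower in members in both libraries, with medians of -0.25 and -0.31. Of all 7194 genes, 1687 were lower in both. The 5 include Iglc2 and Iglc3, similar genes whose read assignment is not stated, so they are not independent counts. Follicular surface genes had medians of -0.05 and -0.09, and antigen receptor signalling genes medians of 0.00 and 0.00. In thinned cells Ighm was seen about as often in members (51.5% and 44.6%) as in the comparison cells (50.9% and 44.1%). Both sets were required to hold an Ighd UMI.

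Among the members themselves, most genes with a wide spread from cell to cell were V genes. After thinning to 1000 UMIs, the median variance over mean of 5657 genes was 1.04 in both libraries, close to the 1 of pure sampling. In both libraries 75 genes were over 1.5, and 49 of them were V genes, of 50 V genes in the set. Igkv17-121 had 5.47 and 6.07, with UMIs in 36 and 34 cells and up to 12 in 1 cell. Gm42418, which is no V gene, had higher values of 10.2 and 8.64. Ccl5, a chemokine of T and natural killer cells, had 10.4 and 5.21, and its UMIs lay in 10 and 14 cells. Mef2c, a B cell transcription factor, had 1.93 and 1.91 at means of 2.53 and 2.38 UMIs per cell, Cd74 had 1.72 and 1.68, and the adaptor Bank1 had 1.58 and 1.59. Cxcl2 (2.91 and 1.81) was seen in 47 and 32 cells, up to 8 UMIs in 1 of them. No sub-clusters were drawn.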

How the data were processed

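Single-cell 3′ libraries (SeekOne DD, v2 protocol) of 1 vehicle and 1 RP-6306 tumour sample were used. The authors deposited raw UMI counts per gene and barcode, unnormalized. The submitters' processing notes name Cell Ranger 2.1.1 and mm10, without roles. Of 32285 gene IDs 32235 were found in GENCODE vM21 (GRCm38), which gave the coordinates.

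Members were found by the rule in each library, and their counts were summed per library and scaled by the total to CPM. Members and lists were chosen with earlier results of these data known. Genes with at least 20 UMIs over both libraries were measured. The log2 ratio of CPM + 1 carries an exact 95% interval for counting error only, and PCR and mouse-to-mouse spread are not in it. With 1 library per group no test was made and no p-value is given. On simulated counts for this comparison (10149 genes), 97% of genes changed 2-fold and 97% of those changed 1.5-fold had the right direction. The simulation held counting error only, so it does not show how reliable the directions are across mice or libraries. Shares have Clopper-Pearson intervals, and a count of 0 allows 3 counts of the total. Doublets were scored with Scrublet in scanpy 1.11.5, and the rest ran in Python 3.11.15 with numpy 2.4.6, scipy 1.17.1 and pandas 2.3.3.

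Named genes were the 12 highest and 12 lowest ratios of genes that reached 50 CPM and 50 UMIs in the higher library and whose level in members was at least that of other barcodes, without ribosomal, mitochondrial, haemoglobin, antigen receptor, predicted and rule genes. To these came the 5 highest and 5 lowest without the condition on other barcodes, up to 4 per list with at least 50 UMIs, fixed B cell markers, the 20 leading genes, 10 each way against the other B cells and the 15 most variable. Txnip, Ciita, Ctss, Lgmn, H2-DMa, H2-DMb1, Tnfrsf13c, Bach2, Foxo1, Foxp1, Ikzf1, Itgax, Tbx21, Rag1, Rag2, Vpreb1, Igll1, Il6 and Il10 were named after their values were seen. Alternatives changed the pseudocount, count filter, scaling, depth, limits of the rule and doublet handling. Results of some genes that the rule names are not reported here.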

Additional observations from a re-analysis of the deposited data

How the results depend on the processing

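The counts of genes past 1.5-fold between libraries, 457 higher and 719 lower, were 99 and 156 with a pseudocount of 10 CPM, 1190 and 2086 with no filter on low counts and 120 and 132 with at least 100 UMIs per gene. The log2 ratio of the member share was 0.01, and moved to -0.14 when cells under 1000 UMIs were left out and to 0.15 with other-lineage genes all at 0. The share with more lambda than kappa constant UMIs was 38.8% and 38.4% in cells thinned to 1000 UMIs before the rule. Against Fcrl5, Sox5 or Mzb1 positive B cells, 290 genes were higher and 110 lower in both libraries when these held at least 2 UMIs of the 3 genes, and 66 were lower without thinning, against 88 and 33. The cause of these moves was not tested. Under 11 settings none of the 25 list medians left the spread used, which runs from the median lower to the median upper limit of the list's genes. That spread can be wide (-1.46 to 0.33 for G2 and mitosis), so staying within it says little. The median of G2 and mitosis ranged from -0.62 to -0.08, of plasma cell genes from -0.41 to -0.07 and of germinal centre genes from -0.52 to -0.08. The medians of antigen receptor signalling and of S phase genes changed sign in 6 of the 11 settings and that of interferon-stimulated genes in 5. Of 1670 values of 154 named genes, 23 moved outside the gene's own interval. A change of direction was counted only for genes whose interval left out 0, and 0 values had one. Some genes near 0 did change sign, such as Igkv6-23 in 3 and Atr in 2 of 11 settings. Thinned to 1000 UMIs, Il7r was at 1.58 and H2-DMb2 at 0.30. Scaling without the ribosomal RNA loci Gm42418, AY036118 and Gm26917 was chosen after seeing the data, and gave 368 higher and 879 lower genes. No paired analysis was possible because each group has 1 library. With 1 library per group, no replicate could be left out, and differences between mice, sorts and libraries cannot be told apart from treatment.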
